A study of Mus musculus with 12 samples.

Results

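The BMP ligands Bmp2 and Bmp4, the 4 Id genes and the BMP pathway inhibitors Smad6, Smad7 and Bambi were followed in mouse embryonic stem cells that carried or lacked Tcf3, grown with or without added Wnt3a. These 9 genes were taken by symbol, with every probe set annotated to only 1 of them, which gave 14 of the 45037 probe sets on the arrays that are not controls. Id2 and Id4 had 3 probe sets each, Smad7 had 2 and the other genes had 1 each. The 12 Affymetrix arrays fell into 4 groups of 3: Tcf3-/- cells in control medium, Tcf3+/+ cells in control medium, Tcf3-/- cells with 50 ng/ml recombinant Wnt3a for 24 h, and Tcf3+/+ cells with the same Wnt3a treatment. All cells grew on gelatin without feeder cells, in medium with fetal bovine serum and Lif. Tcf3 in these labels is Tcf7l1, a Tcf/Lef family repressor, and not the E2A gene of the same symbol. Neither the line or clone behind each genotype nor the deleted exons are given in the sources used here, so loss of Tcf3 and other differences between the lines cannot be told apart.

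BMP ligands bind a complex of type I and type II serine/threonine kinase receptors, which phosphorylate Smad1, Smad5 and Smad9. With Smad4, these enter the nucleus and raise transcription of the Id genes. Id proteins are helix-loop-helix proteins without a DNA-binding region, and they sequester E proteins and so block lineage-specific bHLH factors. In mouse embryonic stem cells, BMP signalling and Id proteins act beside Lif to hold back neural differentiation. Smad6 and Smad7 are inhibitory Smads, themselves induced by the pathway, and Bambi is a decoy receptor that lacks the kinase domain.

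For 3 of the 9 genes the DNA just before the start site is shown, because Id2, Id4 and Id3 fell by unequal amounts in Tcf3-/- cells, Id2 most and Id3 least. Each sequence is the 250 bases before the RefSeq start (GRCm38.p6), read 5' to 3' on the gene's strand. Capitals mark GGCGCC, a motif known from BMP-responsive Id promoters. The Id2 sequence lies at chr12:25096093-25096342 on the minus strand, that of Id4 at chr13:48260866-48261115 on the plus strand, and that of Id3 at chr4:136143572-136143821 on the plus strand.
Id2: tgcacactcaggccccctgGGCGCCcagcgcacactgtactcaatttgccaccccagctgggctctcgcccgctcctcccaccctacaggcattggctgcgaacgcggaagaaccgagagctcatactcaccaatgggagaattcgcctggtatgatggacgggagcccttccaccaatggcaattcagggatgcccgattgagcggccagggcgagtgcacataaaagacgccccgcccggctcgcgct
Id4: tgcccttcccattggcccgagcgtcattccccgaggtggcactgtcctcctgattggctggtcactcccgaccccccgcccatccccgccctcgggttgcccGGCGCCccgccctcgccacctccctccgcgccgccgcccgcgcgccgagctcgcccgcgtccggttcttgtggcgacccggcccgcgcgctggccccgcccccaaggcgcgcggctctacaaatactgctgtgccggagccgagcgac
Id3: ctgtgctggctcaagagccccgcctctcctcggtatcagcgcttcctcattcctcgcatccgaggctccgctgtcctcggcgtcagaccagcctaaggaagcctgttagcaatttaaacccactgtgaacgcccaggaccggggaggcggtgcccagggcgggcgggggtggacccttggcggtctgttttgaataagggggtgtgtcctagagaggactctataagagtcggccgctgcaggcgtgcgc
GGCGCC stood once in the Id2 window, 231 to 226 bases before the start, and once in that of Id4, 148 to 143 bases before it. The Id3, Bmp4 and Smad6 windows held none. Only these 5 windows are read here, since Id1 and Bmp2 had no sequence and Smad7 and Bambi were left out. GGCGCC reads the same on both strands and was found in 9.59% of 32851 promoter windows of this length. The palindrome GTCTAGAC (0.167% of windows) and the Tcf/Lef motifs CTTTGAA (4.46%), then CTTTGAT (3.21%), then CTTTGTA (3.2%) and also CTTTGTT (5.03%), searched on both strands (14.8% of windows held at least 1 of the 4), were in none of the 5 windows. GC content was 62.8% for Id2, 75.6% for Id4 and 62.8% for Id3, against a median of 52.4% over all windows. The motif shares are over all windows and are not matched for GC content. Whether GGCGCC goes with the size of the fall was not tested.

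Values are deposited RMA intensities on the log2 scale, with n = 3 arrays per group. Each gene is read by its brightest probe set, and a change is 1 group mean minus the other, given with its standard error (SE) from a limma fit of all 12 arrays. P-values are adjusted by the Benjamini-Hochberg method over 13811 genes tested, and a gene is called at an adjusted p under 0.05. Whether the replicates are separate cultures is not stated in the labels. The p-values therefore reflect only how these arrays vary, which may be technical. The floor, 5.56 on the log2 scale, is the 40th percentile of all probe sets, and a gene was tested if at least 3 of 12 arrays exceeded it. All 9 genes passed, Bmp2 only through its Tcf3+/+ arrays.

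Arrays of a group correlated at 0.995 to 0.9981. The targeted gene Tcf7l1 averaged 9.47 ± 0.11 in Tcf3-/- cells and 10.85 ± 0.07 in Tcf3+/+ cells in control medium (SD, n = 3 each), lower but far above the floor. Embryonic stem cell markers (Pou5f1, Nanog, Esrrb and others) were above the floor in every group, 10 of 10, and 8 of 10 were called higher and 0 lower in Tcf3-/- cells in control medium (median log2 change 0.33). Their summed intensity was 100700 to 103200 in Tcf3-/- and 74690 to 81570 in Tcf3+/+ arrays there, and with Wnt3a 5 of 10 were called higher and 0 lower. Over all genes tested, 19.9% were called higher and 22.3% lower in control medium, and 13.2% and 14.7% with Wnt3a. The spiked-in transcript dap averaged 11.69 on Wnt3a arrays and 4.41 on control-medium arrays, so medium and array preparation cannot be told apart, and every Wnt3a effect below includes both. The actin 3' minus 5' signal, a sign of RNA quality, was 0.31 to 0.41 in Tcf3-/- and 0.18 to 0.24 in Tcf3+/+ arrays of control medium. With Wnt3a it was 0.36 to 0.41 in Tcf3-/- and 0.24 to 0.27 in Tcf3+/+ arrays. Its part in the knockout effects below was not tested.

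**Figure D1:**
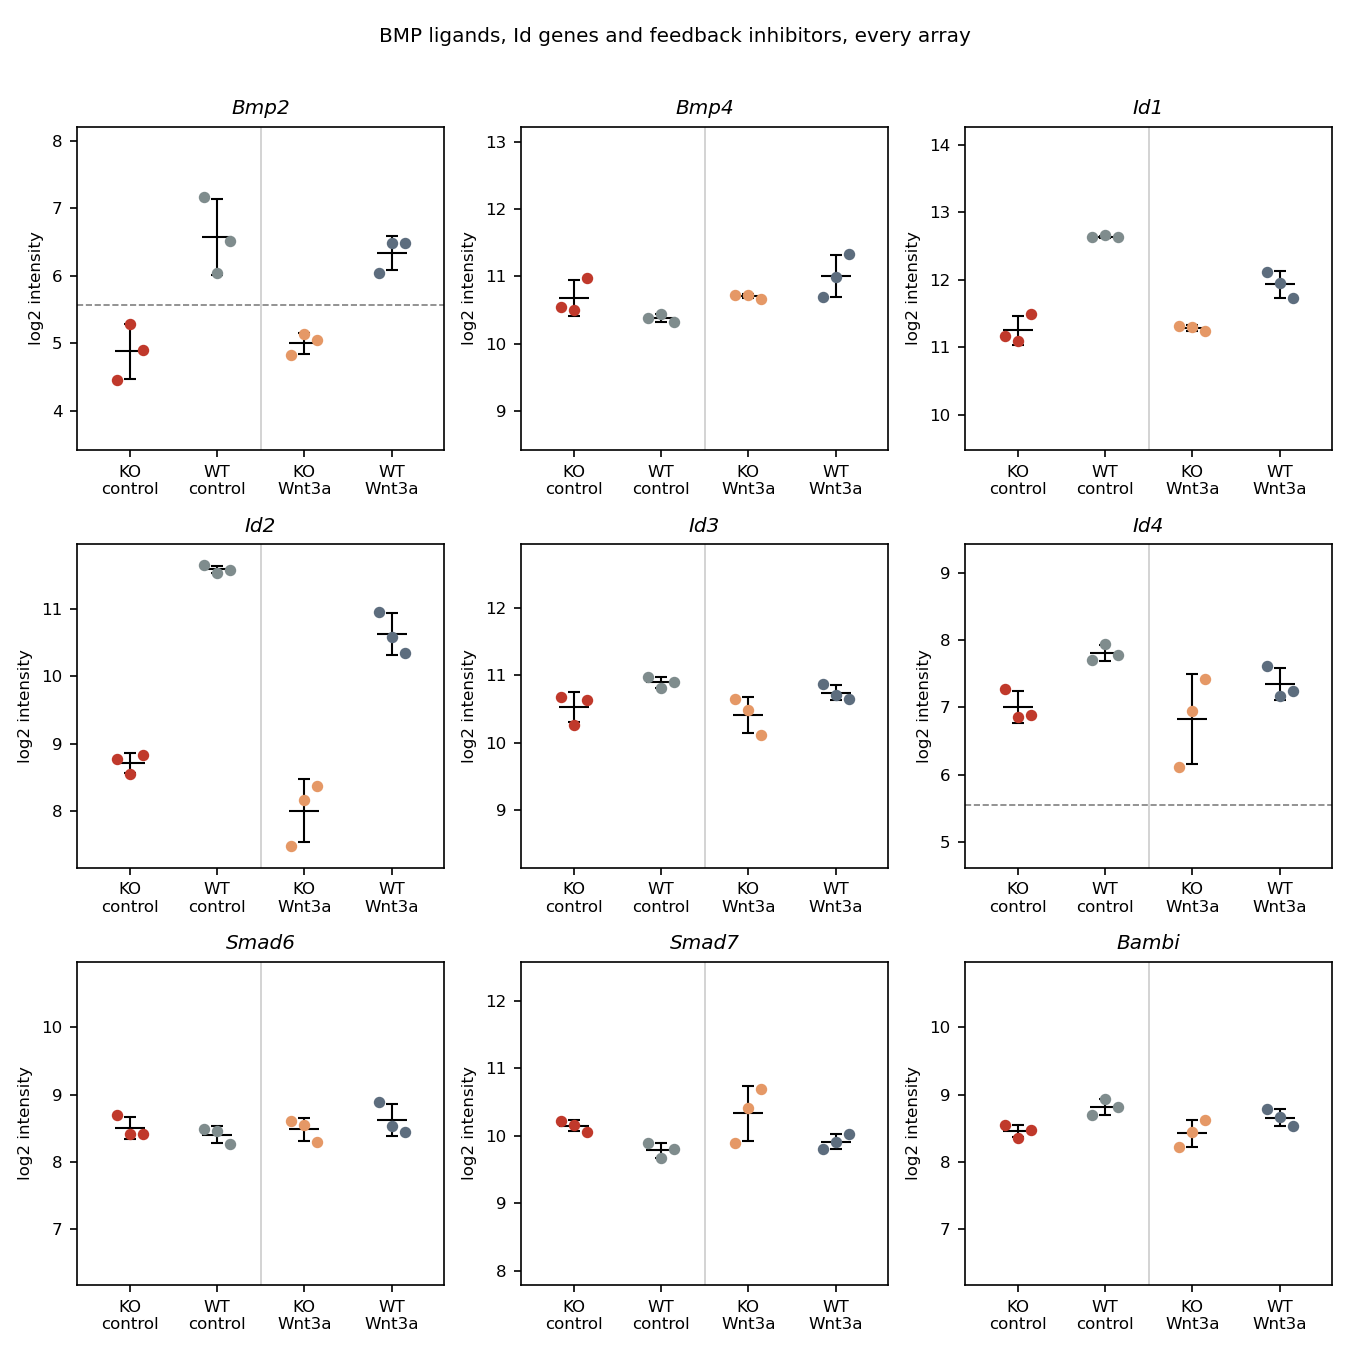
Log2 intensity of the 9 genes on every array (points) with the group mean ± SD (bars), n = 3 arrays per group. KO marks Tcf3-/- and WT Tcf3+/+ cells. Each panel spans the same log2 range, and the dashed line is the floor of 5.56. Id2 shows the widest gap between genotypes, and Bmp2 lies under the floor on all Tcf3-/- arrays.

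Loss of Tcf3 in control medium went with lower levels of Bmp2, of all 4 Id genes and of Bambi, and with no called change of Bmp4, Smad6 or Smad7. Of the 9 genes, 6 were called lower and 0 higher, where 22.3% of all genes tested were called lower, 19.9% higher and 42.2% either way. Without Bmp2, which passed the filter through its Tcf3+/+ arrays alone, it was 5 of 8. The median log2 change was -0.37 over the 9 genes and 0.012 over all genes tested. The arrays of the genotypes did not overlap for 8 genes, 6 lower and 2 higher in Tcf3-/- cells, where 28.1% and 26% of all genes showed the same. The 6 lower include Bmp2. Bulk RNA was measured, so fewer cells expressing a gene and less RNA per cell cannot be told apart.

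Among the ligands, Bmp2, which signals through the same receptors as Bmp4, was read at 4.46, 5.28 and 4.90 in Tcf3-/- arrays and at 7.17, 6.04 and 6.51 in Tcf3+/+ arrays in control medium. Every Tcf3-/- array lay under the floor and every Tcf3+/+ array above it. Bmp2 was at least 2.01-fold lower in Tcf3-/- cells, measured against the floor. It was tested only through its Tcf3+/+ arrays, so it had to differ, and its p-values are not given. Bmp4, the main BMP ligand of the early embryo, was read at 10.55, 10.50 and 10.98 in Tcf3-/- arrays and at 10.38, 10.45 and 10.32 in Tcf3+/+ arrays. The lowest Tcf3-/- array was above the highest Tcf3+/+ array by a small margin. The difference of 0.29 ± 0.15 SE (95% interval -0.03 to 0.61) did not pass (limma adjusted p = 0.135).

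The Id genes differed widely in the size of their change. Id2, read at 8.78, 8.55 and 8.83 in Tcf3-/- arrays against 11.65, 11.54 and 11.58 in Tcf3+/+ arrays, fell by 2.87 ± 0.20 SE on the log2 scale (limma adjusted p = 8e-07). This gap was many times the spread within either group. Id1, a direct target of BMP Smads, was read at 11.17, 11.09 and 11.49 in Tcf3-/- arrays and at 12.63, 12.66 and 12.63 in Tcf3+/+ arrays. It fell by 1.39 ± 0.11 SE (limma adjusted p = 1.74e-06) and stayed far above the floor in both genotypes.

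Id4 and Id3 fell by less, and both calls were lost when certain single arrays were left out. Id4 was read at 7.28, 6.86 and 6.89 in Tcf3-/- arrays and at 7.70, 7.94 and 7.78 in Tcf3+/+ arrays, a change of -0.80 ± 0.26 SE (limma adjusted p = 0.0248). The groups did not overlap. The Id4 call was lost without Tcf3+/+ control array 2 (adjusted p = 0.0741) or 3 (0.0572), or without Tcf3-/- control array 2 (0.08) or 3 (0.0757), while the change stayed between -0.81 and -0.72. Id3 was read at 10.68, 10.27 and 10.64 in Tcf3-/- arrays and at 10.98, 10.81 and 10.90 in Tcf3+/+ arrays, a change of -0.37 ± 0.14 SE that passed narrowly (limma adjusted p = 0.0453). Its groups did not overlap either, although Tcf3-/- array 2 lay well below the other 2. The Id3 call was lost without the filter on dim genes (0.0518), with median centring (0.0516), and without Tcf3-/- control array 2 (0.187) or 3 (0.0523), or Tcf3+/+ control array 1 (0.129), 2 (0.0571) or 3 (0.0996). It was also lost without Tcf3-/- Wnt3a array 2 (0.0573), or Tcf3+/+ Wnt3a array 2 (0.0591) or 3 (0.0505), and without Tcf3-/- control array 2 the change was -0.24.

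The inhibitors did not move together. Bambi was read at 8.55, 8.36 and 8.47 in Tcf3-/- arrays and at 8.70, 8.93 and 8.81 in Tcf3+/+ arrays, and fell by 0.35 on the log2 scale (limma adjusted p = 0.0165). Its groups did not overlap, but the call was lost without Tcf3-/- control array 2 (0.0642) or Tcf3+/+ control array 2 (0.0623). Smad6 was read at 8.70, 8.41 and 8.42 in Tcf3-/- arrays and at 8.49, 8.46 and 8.26 in Tcf3+/+ arrays. These overlapped, with a difference of 0.11 (95% interval -0.17 to 0.39, limma adjusted p = 0.552). Smad7 was read at 10.22, 10.16 and 10.06 in Tcf3-/- arrays and at 9.89, 9.67 and 9.80 in Tcf3+/+ arrays. No array overlapped, yet the difference of 0.36 ± 0.16 SE did not pass (limma adjusted p = 0.0879). It passed when only the 6 arrays compared were fitted (0.00672), without Tcf3-/- Wnt3a array 1 (0.00943) and without Tcf3-/- Wnt3a array 3 (0.0327).

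With Wnt3a, the lower levels of Id2, Id1 and Bmp2 in Tcf3-/- cells remained and no other member was called. That is 3 of 9 lower and 0 higher (2 of 8 without Bmp2), where 14.7% of all genes tested were called lower, 13.2% higher and 28% either way, with a median log2 change of -0.33 over the 9 genes and 0.006 over all genes. Arrays of the genotypes did not overlap for 4 of the 9 genes, all lower in Tcf3-/- cells (Id1, Id2, Id3 and Bmp2), where 22.3% of all genes tested did so lower and 20.3% higher. Bmp2 is counted there although it was tested only through its Tcf3+/+ arrays. Id2 was read at 7.48, 8.17 and 8.38 in Tcf3-/- arrays against 10.96, 10.58 and 10.35 in Tcf3+/+ arrays, or 6.15-fold lower (limma adjusted p = 5.61e-06, log2 change -2.62 ± 0.20 SE). The groups were far apart, although each was more spread than in control medium. Id1 was read at 11.32, 11.30 and 11.24 in Tcf3-/- arrays and at 12.12, 11.95 and 11.73 in Tcf3+/+ arrays, or 1.57-fold lower (limma adjusted p = 0.00109, log2 change -0.65 ± 0.11 SE). Bmp2 was read at 4.83, 5.13 and 5.04 in Tcf3-/- arrays, again all under the floor, and at 6.04, 6.48 and 6.48 in Tcf3+/+ arrays. It was at least 1.71-fold lower in Tcf3-/- cells.

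Of the other 6 genes, Id4 and Smad7 had Tcf3-/- Wnt3a arrays that were widely spread, while those of Bmp4 lay close together (10.73, 10.72 and 10.67). Id4 was read at 6.11, 6.95 and 7.42 in Tcf3-/- arrays and at 7.62, 7.17 and 7.25 in Tcf3+/+ arrays (log2 -0.52, limma adjusted p = 0.154, and 0.0214 without Tcf3-/- Wnt3a array 3). Smad7 was read at 9.89, 10.41 and 10.70 in Tcf3-/- arrays and at 9.80, 9.91 and 10.03 in Tcf3+/+ arrays (log2 0.42, limma adjusted p = 0.0658). Array 1 was the lowest of its group for both genes, and both pairs of groups overlapped. Smad7 passed without that array (0.00138) and after repeated quantile normalization (0.044). Id3 (log2 -0.33, limma adjusted p = 0.0939), Bmp4 (-0.30, 0.148) and Bambi (-0.23, 0.119) did not pass. Id3 passed without Tcf3-/- Wnt3a array 1 (0.036), Bmp4 without Tcf3+/+ Wnt3a array 1 (0.0365) and Bambi without Tcf3-/- Wnt3a array 3 (0.0388). Smad6 differed by -0.14 (limma adjusted p = 0.47).

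**Figure D2:**
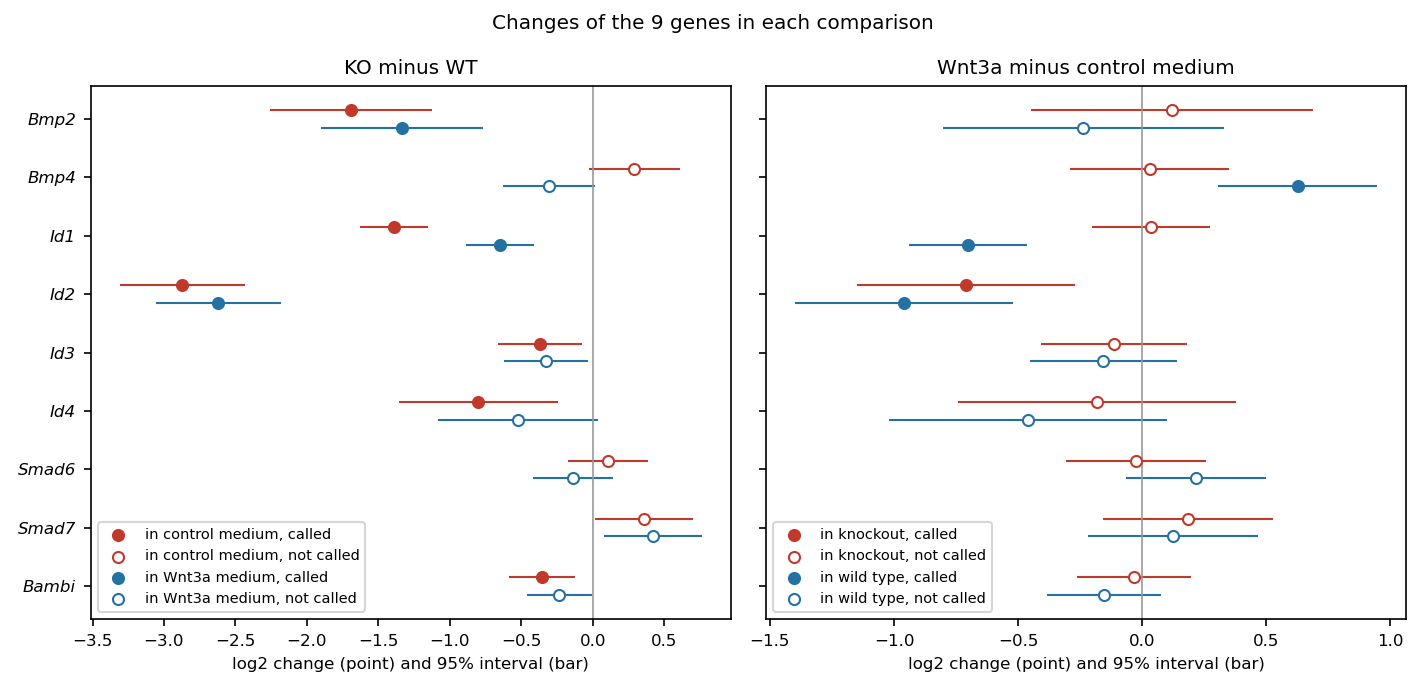
Log2 change of each gene with its 95% interval: Tcf3-/- (KO) minus Tcf3+/+ (WT) in each medium (left) and Wnt3a minus control medium in each genotype (right). Filled points passed at an adjusted p under 0.05. Id2 lies furthest left in both media, at -2.87 and -2.62, and Id1 moved with Wnt3a in Tcf3+/+ cells (-0.70) but lay near 0 in Tcf3-/- cells (0.04).

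Wnt3a arrays of Tcf3+/+ cells had less Id1 and Id2 and more Bmp4 than control-medium arrays of the same genotype. Of the 9 genes, 2 were called lower and 1 higher, where 22.6% of all genes tested were called lower, 18.9% higher and 41.5% either way. Arrays of the media did not overlap for 3 genes lower with Wnt3a and 1 higher, where 28.3% and 24.5% of all genes tested did so. Id1 fell by 0.70 on the log2 scale (1.63-fold, limma adjusted p = 0.000462), with every Wnt3a array (11.73 to 12.12) below every control array (12.63 to 12.66). Id2 fell by 0.96 (1.94-fold, limma adjusted p = 0.00293), with arrays at 10.35 to 10.96 with Wnt3a and at 11.54 to 11.65 in control medium. Bmp4 was read at 10.70, 10.99 and 11.33 with Wnt3a and at 10.38, 10.45 and 10.32 in control medium, a rise of 1.54-fold (log2 0.63 ± 0.15 SE, limma adjusted p = 0.00555). All 3 Wnt3a arrays were above all 3 control arrays, and the Wnt3a arrays were the more spread.

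Id4, at 7.17 to 7.62 with Wnt3a and 7.70 to 7.94 in control medium, did not pass in Tcf3+/+ cells (log2 -0.46, limma adjusted p = 0.171). It passed when only the 6 arrays compared were fitted (0.0244) and without Tcf3-/- Wnt3a array 1 (0.0338). The other 5 genes changed by -0.24 (Bmp2) to 0.22 (Smad6), and their arrays overlapped.

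In Tcf3-/- cells, Id2 was the member called between media, 1 of 9 lower and 0 higher, where 14.7% of all genes tested were called lower, 13.3% higher and 28% either way. It was also the member whose arrays did not overlap between media, where 22.5% of all genes did so lower and 21.3% higher. It fell by 0.71 on the log2 scale (limma adjusted p = 0.0218), with Wnt3a arrays at 7.48 to 8.38 and control arrays at 8.55 to 8.83. The call was lost without Tcf3-/- control array 1 (0.0628) or 3 (0.0777), and without Tcf3-/- Wnt3a array 1 the change was -0.45 (0.049). Id1 changed by 0.04 (95% interval -0.20 to 0.28, limma adjusted p = 0.828), Bmp4 by 0.03 (95% interval -0.29 to 0.35) and Id3 by -0.11. Smad7 changed by 0.19 (limma adjusted p = 0.41, and 0.0177 without Tcf3-/- Wnt3a array 1). Bmp2 was under the floor in both media and has no fold.

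The test of the difference itself, the Wnt3a effect in Tcf3-/- minus that in Tcf3+/+ cells, called Id1. That is 1 of 9 genes higher and 0 lower, where 2.2% of all genes tested were called higher, 1.88% lower and 4.08% either way. For Id1 the difference was 0.74 ± 0.15 SE (95% interval 0.40 to 1.08, limma adjusted p = 0.0261). The adjusted p ran from 0.0101 to 0.0685 over the alternatives. The call was lost without Tcf3-/- control array 1 (0.0685), Tcf3+/+ control array 1 (0.0576) or 3 (0.0671), Tcf3-/- Wnt3a array 2 (0.0602), or Tcf3+/+ Wnt3a array 2 (0.0602) or 3 (0.0515), while the difference stayed between 0.64 and 0.75. Id2, lower with Wnt3a in both genotypes, differed between them by 0.25 (95% interval -0.37 to 0.87, limma adjusted p = 0.674) on its brightest probe set. On 1422537_a_at the difference was 0.60 (limma adjusted p = 0.126), so its size depends on the probe set read. With the mean of all Id2 probe sets it was 0.58 (0.0671). That mean includes 1453596_at, which passed the filter only through Tcf3+/+ control arrays. For Bmp4 the difference was -0.60 ± 0.21 SE (limma adjusted p = 0.127, and 0.0358 without Tcf3+/+ Wnt3a array 1), so a rise particular to Tcf3+/+ cells was not shown.

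Over all 4 groups, Id1 was highest in Tcf3+/+ control arrays, then in Tcf3+/+ Wnt3a arrays, and lowest in both Tcf3-/- groups, whose arrays overlapped. Id2 had 4 separate levels on its brightest probe set, with no overlap between neighbours and with means of 8.01 ± 0.47 in Tcf3-/- Wnt3a, 8.72 ± 0.15 in Tcf3-/- control, 10.63 ± 0.31 in Tcf3+/+ Wnt3a and 11.59 ± 0.06 in Tcf3+/+ control arrays (SD, n = 3 each). On 1422537_a_at the arrays of the Tcf3-/- groups overlapped. For Id3 and Id4 the order of the means was the same as for Id2, but neighbouring groups overlapped for all except Tcf3+/+ control against Tcf3+/+ Wnt3a arrays of Id4. Bmp2 had 2 levels, above the floor in Tcf3+/+ cells and below it in Tcf3-/- cells. Smad6 arrays overlapped in all groups.

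**Figure D3:**
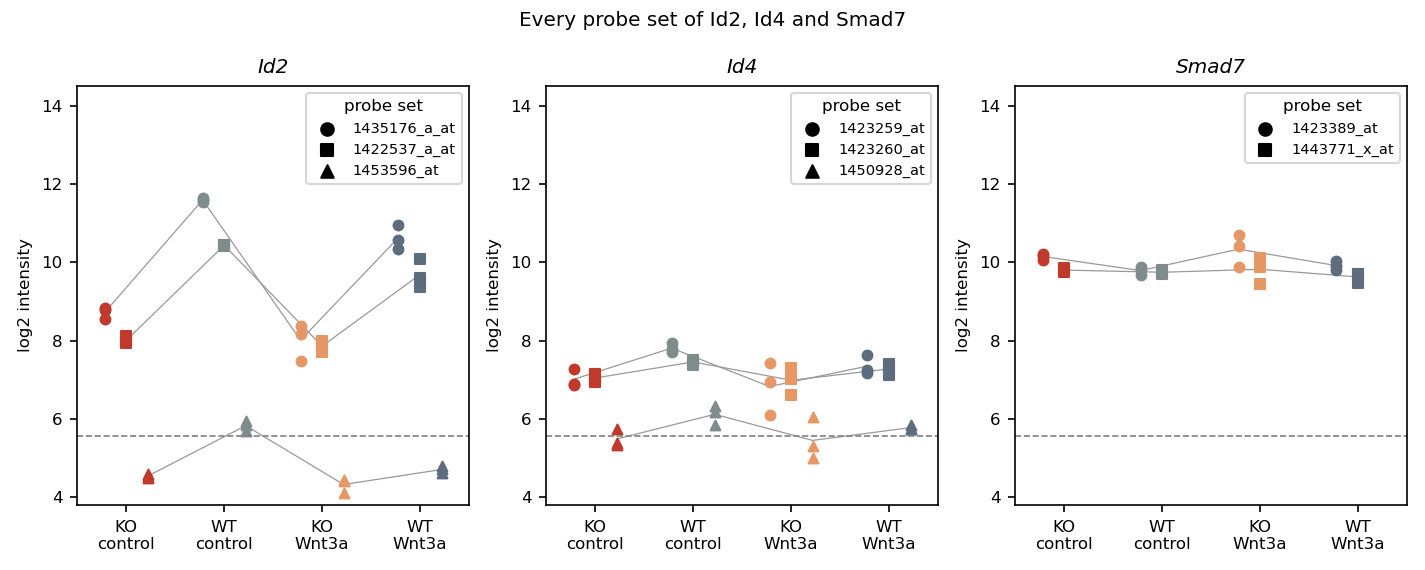
Log2 intensity of every probe set of Id2, Id4 and Smad7 on each array (points; KO is Tcf3-/-, WT is Tcf3+/+), with grey lines joining the group means and the floor dashed at 5.56. The Id2 probe sets 1435176_a_at and 1422537_a_at order the groups alike, and 1453596_at is above the floor in Tcf3+/+ control arrays alone.

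The separate probe sets of a gene moved the same way in control medium but by different amounts. In a limma fit over 28483 probe sets, 9 of the 14 were called lower in Tcf3-/- cells and 0 higher, where 18.2% of all probe sets tested were called lower, 18% higher and 36.2% either way. With Wnt3a, 5 were called lower and 0 higher, where 13.2% were called lower, 10.8% higher and 24% either way. In both media these calls include Bmp2 and 1453596_at of Id2, which passed the filter only through the groups where they were high. Between media, 4 were lower and 1 higher in Tcf3+/+ cells (21.7%, 20.8% and 42.5% of all probe sets lower, higher and either way), and 1 was lower and 0 higher in Tcf3-/- cells (16%, 14.9% and 30.9%). The 4 include 1453596_at, which had to fall there. The difference of Wnt3a effects called 2 higher and 0 lower (1.58%, 2% and 3.58% of all probe sets higher, lower and either way), those of Id1 and 1453596_at of Id2, which lay under the floor in 3 of the 4 groups, so that its difference is not read here. In this fit Id3 did not pass (adjusted p = 0.0509). The second Id2 probe set, 1422537_a_at, was read at 8.11, 7.96 and 7.94 in Tcf3-/- arrays and at 10.44, 10.44 and 10.42 in Tcf3+/+ arrays, a change of -2.43. With Wnt3a its change was -1.83. Between media in Tcf3-/- cells it changed by -0.15 and did not pass (limma adjusted p = 0.467), so of the single Id2 probe sets only the brightest was called there. With the mean of all Id2 probe sets the change between genotypes was -2.20 in control medium and -1.61 with Wnt3a, and between media in Tcf3-/- cells it was -0.36, which passed (limma adjusted p = 0.0383). These means include 1453596_at, which lay under the floor outside Tcf3+/+ control arrays.

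The third Id2 probe set, 1453596_at, was read at 5.95, 5.84 and 5.69 in Tcf3+/+ control arrays and below the floor in the other groups, so it was tested only through that group. The Id4 probe sets 1423260_at (log2 -0.41, limma adjusted p = 0.0356) and 1450928_at (-0.63) were both called lower in Tcf3-/- cells in control medium. No Id4 probe set was called with Wnt3a. In control medium 1450928_at averaged 5.49 in Tcf3-/- arrays, under the floor, and 6.12 in Tcf3+/+ arrays. That probe set passed the filter mostly through Tcf3+/+ arrays, so its p-value is not given. For Smad7 the probe sets differed. The change in control medium was 0.36 for 1423389_at and 0.06 for 1443771_x_at (limma adjusted p = 0.772). On the second, Tcf3-/- arrays at 9.76, 9.84 and 9.80 overlapped Tcf3+/+ arrays at 9.80, 9.69 and 9.74.

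The other genes of the pathway were taken by role from lists chosen with earlier results of these data known. Of 7 other BMP and GDF ligands tested, 1 was lower and 0 higher in Tcf3-/- cells in control medium (median log2 change -0.12), where 22.3% of all genes tested were lower and 19.9% higher. This was Bmp8b, a ligand known from germ cell induction, which averaged 6.58 ± 0.14 in Tcf3-/- and 8.18 ± 0.10 in Tcf3+/+ cells (SD, n = 3 each), 3.03-fold lower (limma adjusted p = 6.37e-07), and 2.15-fold lower with Wnt3a. Gdf3, a TGF-beta family ligand of pluripotent cells, changed by 0.33 and did not pass (0.0523). It passed without Tcf3+/+ control array 2 (0.000732) and in 4 other settings.

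Of 9 receptors and co-receptors, 5 were lower and 2 higher in control medium (median -0.33), and 2 were lower and 3 higher with Wnt3a (median -0.06). Over all genes tested, 22.3% were lower and 19.9% higher in control medium, and 14.7% and 13.2% with Wnt3a. The co-receptor gene Rgmb fell by 1.27 (limma adjusted p = 1.99e-05), or 0.57 with the mean of its probe sets. The type II receptor gene Bmpr2 fell by 0.66 (0.00103), or 0.29 with the mean of its probe sets. Eng, which encodes the co-receptor endoglin, was 1.61-fold higher in Tcf3-/- cells (limma adjusted p = 0.000941) and 1.53-fold higher with Wnt3a. The betaglycan gene Tgfbr3 changed by 0.25 in control medium and did not pass (0.265). It was higher on Wnt3a than on control-medium arrays in Tcf3-/- cells (log2 1.57, limma adjusted p = 0.000148) and in Tcf3+/+ cells (1.22, 0.000229), or 0.83 and 0.63 with the mean of its probe sets.

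Of 12 Smads and Smad regulators, 7 were lower and 2 higher in control medium (median -0.30), and 6 were lower and 0 higher with Wnt3a (median -0.23), against 22.3% lower and 19.9% higher, and 14.7% lower and 13.2% higher, of all genes tested in these media. Skil, which encodes the Smad corepressor SnoN, averaged 11.54 ± 0.10 in Tcf3-/- and 12.09 ± 0.05 in Tcf3+/+ cells (SD, n = 3 each) and fell by 0.55 (limma adjusted p = 0.000111). Its relative Ski fell by 0.43 (0.000954). Smurf1, a ubiquitin ligase that targets BMP Smads, fell by 0.49 (0.0133), a call lost with the mean of its probe sets (-0.14, 0.223) and without Tcf3-/- control array 2 (0.0525). Tob1, an antiproliferative protein that binds Smads, changed by 0.31 and did not pass (0.0564), but passed without Tcf3+/+ control array 2 (0.0189), Tcf3-/- control array 3 (0.0433), Tcf3+/+ Wnt3a array 1 (0.05) or Tcf3-/- Wnt3a array 1 (0.0459), and in 4 other settings.

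Of 12 secreted antagonists, 4 were lower and 1 higher in control medium (median -0.05), and 1 was lower and 2 higher with Wnt3a (median 0.02). The 5 of 12 called in control medium lie near the 42.2% of all genes called, and the 3 of 12 with Wnt3a near the 28%. The noggin gene Nog was at least 1.5-fold lower in Tcf3-/- cells, whose mean lay under the floor. Its Tcf3-/- control arrays (5.08 to 5.49) all lay under the floor and its Tcf3+/+ control arrays (5.85 to 6.58) above it. Nog passed the filter mostly through its Tcf3+/+ arrays, which favours a lower call, and it is among the 4 called lower. With Wnt3a its arrays overlapped and it was not called. The follistatin gene Fst fell by 0.79 (limma adjusted p = 0.00618) and by 0.91 with Wnt3a (0.00489), and Nbl1, which encodes the antagonist DAN, fell by 0.41 (0.00506). Bmper changed by 0.78 and was not called, with Tcf3-/- control arrays spread from 5.07 to 7.39. Its Tcf3+/+ arrays all lay under the floor, at 5.30 to 5.46 in control medium and 5.08 to 5.44 with Wnt3a. Bmper was tested only through its Tcf3-/- arrays, so its p-values are not given. Without Tcf3-/- control array 1 its change was 1.32.

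Of 10 E proteins and lineage bHLH factors, the partners and rivals of Id proteins, 2 were lower and 1 higher in control medium (median -0.09), and 3 were lower and 1 higher with Wnt3a (median -0.01), where 42.2% of all genes were called either way in control medium and 28% with Wnt3a. Tcf12, which encodes the E protein HEB, fell by 1.06 (limma adjusted p = 8.56e-06), or 0.49 with the mean of its probe sets. Tcf4, which encodes the E protein E2-2, was 1.55-fold higher (0.00382). The E2A gene, which encodes another E protein, changed by -0.10 in control medium and did not pass (0.304). With Wnt3a it changed by -0.27 and was called lower (0.018). Twist1, a mesenchymal bHLH factor, was at least 1.61-fold lower. Its Tcf3-/- mean lay under the floor and its Tcf3+/+ control arrays above it. Twist1 passed the filter mostly through Tcf3+/+ arrays, so its p-value is not given, and it is among those called lower in both media. Hand1, a bHLH factor of trophoblast and heart, changed by -0.36 (0.0515), and passed without Tcf3+/+ control array 2 (0.0221), Tcf3+/+ Wnt3a array 1 (0.0443), 2 (0.00974) or 3 (0.047), and in 4 other settings.

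Of 10 other BMP-responsive genes, 5 were lower and 0 higher in control medium (median -0.27), and 5 were lower and 0 higher with Wnt3a (median -0.30), where 22.3% of all genes were lower and 19.9% higher in control medium, and 14.7% lower and 13.2% higher with Wnt3a. Gata2 fell by 0.89 (limma adjusted p = 2.78e-05) and Gata3 was at least 1.80-fold lower in control medium. Every Tcf3-/- array of Gata3 lay under the floor in both media, so it was tested only through its Tcf3+/+ arrays, and it had to differ. Gata3 is among the 5 called lower in each medium. Gata2 and Gata3 encode GATA factors of trophectoderm and blood. Junb, an AP-1 factor gene, fell by 0.71 (0.00355) and by 0.88 with Wnt3a (0.00184). Msx1, a homeobox gene, changed by -0.20 (0.128), or -0.49 with the mean of its probe sets (0.0199). Tfap2c, an AP-2 factor of trophectoderm and germ cells, was lower in Tcf3-/- cells with Wnt3a (log2 -0.67, limma adjusted p = 0.000204) and changed by -0.16 in control medium (0.177, and 0.0467 without Tcf3-/- Wnt3a array 3). The difference between these, -0.51, passed (0.0417) but was lost in 10 of 19 alternatives.

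**Figure D4:**
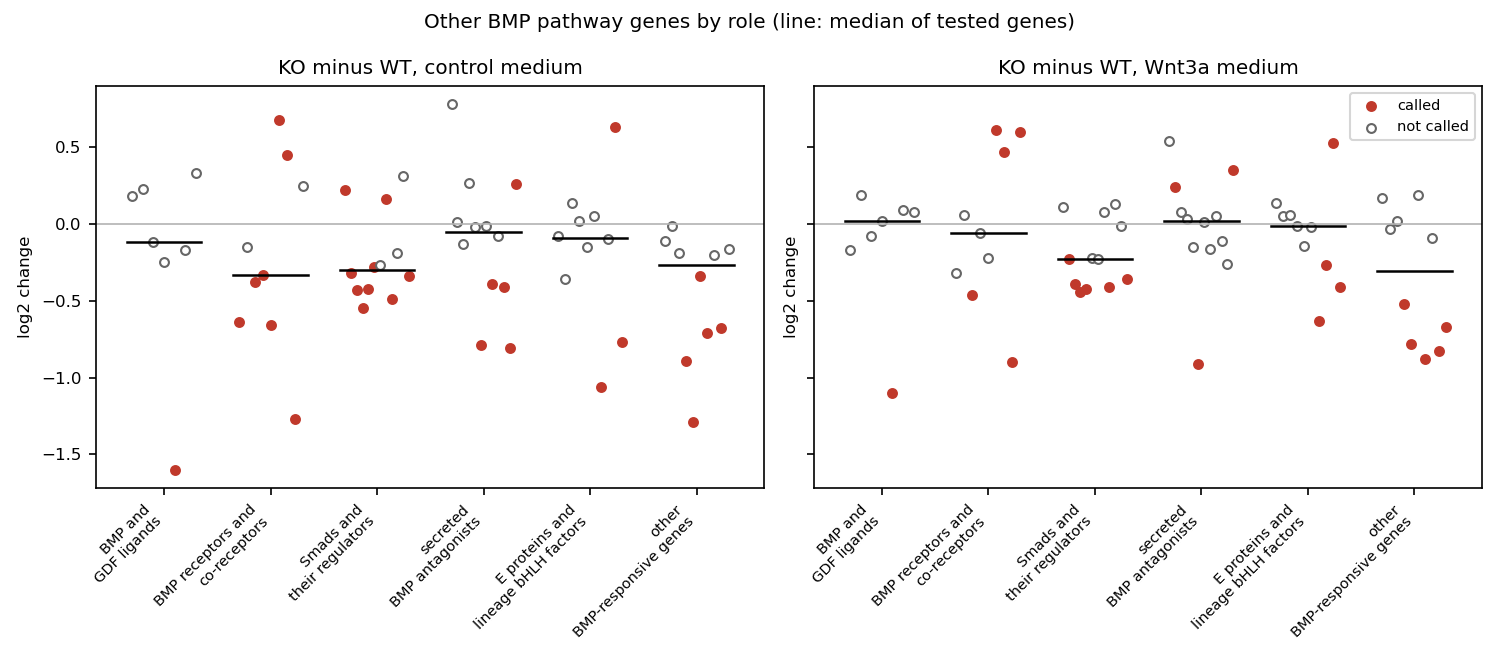
Log2 change, Tcf3-/- (KO) minus Tcf3+/+ (WT), of every tested gene in 6 BMP pathway lists in control medium (left) and with Wnt3a (right). Red filled points passed at an adjusted p under 0.05, open points did not, and the short line is the list's median. The other BMP-responsive genes and the Smads and regulators lie mostly below 0 in both media.

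Markers of some other cell types also moved with genotype. As a background, 22.3% of all genes tested were called lower and 19.9% higher in control medium, and 14.7% and 13.2% with Wnt3a. The summed intensity of 12 trophectoderm markers (Cdx2, Krt8, Krt18 and others) was 3302 to 3735 in Tcf3-/- arrays and 22390 to 35760 in Tcf3+/+ arrays in control medium, with 6 of 10 tested called lower and 0 higher. With Wnt3a it was 2925 to 3126 in Tcf3-/- and 18200 to 21710 in Tcf3+/+ arrays, with 6 of 10 called lower and 1 higher. Of the 12 genes, 9 were above the floor in Tcf3-/- and 10 in Tcf3+/+ cells. Elf5 and Tpbpa were below it in every group, and Gata3 also in Tcf3-/- cells. The sum of 11 fibroblast and feeder markers was 992 to 1292 in Tcf3-/- and 5258 to 8858 in Tcf3+/+ arrays in control medium, and with Wnt3a 1015 to 1108 in Tcf3-/- and 7423 to 8096 in Tcf3+/+ arrays. Col3a1 and Lum were below the floor in every group and Col1a1 in Tcf3-/- cells, and 4 of 9 tested were called lower and 3 higher in control medium. Neural markers summed to 1112 to 1252 in Tcf3-/- and 1588 to 1694 in Tcf3+/+ arrays in control medium. Of 6 tested, 2 were called lower and 0 higher there, with a median log2 change of 0.09. Endoderm markers (3445 to 7193 in Tcf3-/- and 4252 to 5334 in Tcf3+/+ arrays) and streak and mesoderm markers (855.2 to 971.7 in Tcf3-/- and 816.8 to 920.5 in Tcf3+/+ arrays) overlapped between the genotypes in control medium. With Wnt3a the endoderm sums overlapped. The streak and mesoderm sums did not, at 944.1 to 1050 in Tcf3-/- and 780.1 to 907.7 in Tcf3+/+ arrays. Of 7 streak and mesoderm markers tested, 1 was called higher and 0 lower there. Neural sums with Wnt3a were 874.3 to 1099 in Tcf3-/- and 1132 to 1571 in Tcf3+/+ arrays. The part of these cell types in the lower Id and Bmp2 levels was not tested.

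The genes most like each member over the 12 arrays were taken by Pearson's r of log2 intensity, as a description, since the arrays share group differences and normalization. Nearest to Id2 were Prickle1 (r = 0.996), Lad1 (0.994) and Kcnk1 (0.992), and nearest to Id1 were Adm (0.989), Dnajc5 (0.984) and Hes6 (0.984). Bmp2 was most like Myof (0.981), Cryab (0.978) and Cdc42ep1 (0.969). Id4 was most like Zbtb39 (0.978), Chml (0.977) and Micu3 (0.954), and Bambi was most like Ly6e (0.958), then Id4 (0.952) and Tkt (0.948). Smad7 was most like Nmnat2 (0.962), Id3 like Chtf8 (0.95) and Bmp4 like Zfp553 (0.933), while Smad6, which passed in no comparison, reached 0.881 with Nbn.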

How the data were processed

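The authors deposited a table of linear intensities for 45101 probe sets on 12 arrays. Per the submitters' processing notes these come from RMA, with version and settings not given in the sources used here. From these values log2 was taken, with no pseudocount. Gene symbols came from the platform annotation, and probe sets with several symbols were not used by name. This left 18193 genes, each read by its brightest probe set, of which 13811 passed the filter. The fit used lmFit and eBayes (constant prior) of limma 3.58.1 under R 4.3.3, and every adjusted p is limma's. With 3 arrays per group, their number limits the precision. A mean under the floor (intensity 47.2) gives a fold bound against it. The fit was tested on simulated data. Promoter sequences are RefSeq's. Id1 and Bmp2 had none, and Smad7 and Bambi were left out.

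The members, the lists and the rule for named genes were chosen with earlier results of these data known. The rule took every member, and from each pathway list the 3 called genes with the largest knockout effect in control medium, the largest not called, and the largest called interaction. For each member it took the 3 genes of highest correlation, of which part is printed. The E2A gene is outside it and was chosen after its values were seen. Alternatives were the mean of probe sets, other filters and normalizations, fitting only the arrays compared, a trended prior, the replicate number as a block, and leaving out each array. The named pathway genes were run under them after seeing the data.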

Additional observations from a re-analysis of the deposited data

Results flagged for a closer look

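The Wnt3a effect on Id1 differed between genotypes by a test of the difference itself. It was 0.04 on the log2 scale in Tcf3-/- and -0.70 in Tcf3+/+ cells, a difference of 0.74 (limma adjusted p = 0.0261, and 0.0101 to 0.0685 over the alternatives).

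The bacterial spike-in dap, which enters no comparison, averaged 11.69 on the Wnt3a arrays and 4.41 on the control-medium arrays, a difference of 7.28 on the log2 scale. The spike-ins thr (4.76), lys (3.2), phe (2.41), bioB (2.42) and cre (1.87) were also higher on Wnt3a arrays.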

How the results depend on the processing

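The alternatives were another reading of probe sets, other filters, other normalizations, another prior, fitting only the arrays compared, the replicate block and leaving out each array. The number of members called between genotypes was 6 in control medium (3 to 7 with an array left out) and 3 with Wnt3a (3 to 5). Between media it was 3 in Tcf3+/+ cells (3 to 4) and 1 in Tcf3-/- cells (0 to 2), and for the difference of Wnt3a effects it was 1 (0 to 2). Other alternatives gave 5 to 7, 2 to 4, 3 to 4, 1 and 1 in the same order. Over all genes, leaving out an array gave 2393 to 4011 calls between media in Tcf3-/- cells (3872 with all arrays) and 151 to 952 for the difference of Wnt3a effects (563 with all arrays). Without Tcf3-/- control array 2 or Tcf3+/+ control array 2, 3 members were called in control medium.

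Sign changes arose in values that did not pass. In Tcf3-/- cells between media, median centring gave 0.04 for Smad6 and 0.03 for Bambi, and repeated quantile normalization gave -0.04 for Id1 and -0.05 for Bmp4. With an array left out the same comparison ran from -0.09 to 0.07 for Smad6, -0.13 to 0.07 for Bambi, -0.04 to 0.16 for Id1, -0.06 to 0.18 for Bmp4, -0.09 to 0.32 for Bmp2, -0.48 to 0.18 for Id4 and -0.24 to 0.04 for Id3. Bmp2 ran from -0.5 to 0.06 between media in Tcf3+/+ cells. The difference of Wnt3a effects ran from -0.09 to 0.19 for Id3, -0.02 to 0.64 for Id4 and -0.12 to 0.28 for Smad7. The cause was not tested.

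Median centring moved the share of calls that were higher with Wnt3a to 61.5%, against 45.6%, in Tcf3+/+ cells, and to 66.3%, against 47.5%, in Tcf3-/- cells. The stricter filter left Bmp2 untested. With the replicate number as a block, 6 members were called in control medium, 3 with Wnt3a, 3 between media in Tcf3+/+ cells and 1 in Tcf3-/- cells, and 1 for the difference of Wnt3a effects. Same-numbered arrays had deviation correlations of -0.257 to 0.244, so the numbers were not taken as pairs.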

Other observations

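With Wnt3a, Tcf3-/- array 1 was the lowest of its group for Id2, Id4, Bmp2, Smad7 and Bambi and the highest for Id1, Id3, Bmp4 and Smad6. The SD of the Tcf3-/- Wnt3a group was 0.66 for Id4 and 0.47 for Id2, against 0.23 and 0.15 in Tcf3-/- control arrays (n = 3 each).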
